A study of Bos taurus with 20 samples.

Results

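The transcripts described here are those of 4 genes, S100A8, S100A9, S100A12 and RETN, in the bovine udder during mastitis caused by Escherichia coli. All probe sets that the annotation of the Affymetrix GeneChip Bovine Genome Array assigns to these symbols were taken, which gave 5 of the 24128 probe sets and 4 of the 9156 gene symbols. S100A8 (NCBI gene ID 616818), S100A12 (282467) and RETN (369020) each had 1 probe set, and S100A9 (532569) had a first and a second one. The genes were chosen by their high transcript levels in challenged, untreated glands on these same arrays. Their differences between CNT and the other glands are therefore given as a description, without a test.

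Tissue came from the 4 separate glands of the udder of 5 midlactating Holstein Friesian cows. In each cow, 3 glands were challenged with 100 cfu of E. coli strain ECC-Z. One challenged gland was left untreated (CNT), and another received 300 mg of the cephalosporin antibiotic cefapirin at each infusion (CF). The last received 300 mg of cefapirin with 20 mg of the glucocorticoid prednisolone at each infusion (CFPD). The remaining gland was neither challenged nor treated (NC). Cows 4 and 5 were sampled at 24 h, after infusions at 4 and 12 h, and cows 1, 2 and 3 at 48 h, after further infusions at 24 and 36 h post challenge, so that a group held 2 glands at 24 h and 3 at 48 h. The glands of a cow shared 1 animal, so an NC gland was not that of an uninfected cow. The NC and CNT glands had the same position (right front and left front) in every cow, and all CF and CFPD glands were rear glands. Comparisons of treated with NC or CNT glands therefore also compare rear with front glands, and treatment and position cannot be told apart there. The labels name the cisternal region as the site of sampling and the methods of the study mid parenchyma.

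The milk protein genes CSN1S1, CSN2 and LALBA stood between 14.12 and 15.58 on the log2 scale in all 20 glands, and the medians of the arrays lay between 7.13 and 7.31. Which treated gland of cows 1 and 4 was CF and which CFPD is in doubt. An earlier report on these arrays found them closer to the comparisons tabulated with the study when these labels are exchanged. That check was not repeated here. Values follow the labels as deposited, and the comparison of CFPD with CF glands is also given with these labels exchanged. NC and CNT glands are not touched by this doubt, nor are any glands of cows 2, 3 and 5.

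S100A8 and S100A9 are small calcium-binding proteins that pair to form calprotectin, one of the most abundant proteins in the cytosol of neutrophils. Calprotectin can also bind zinc and manganese and so withhold them from bacteria. Once released, S100A8 and S100A9 act on TLR4 and on AGER, the receptor for advanced glycation end products. S100A12 is a further ligand of AGER made mainly by neutrophils and monocytes. Resistin, encoded by RETN, is a secreted protein known as a product of fat cells in mice and of monocytes and macrophages in humans. In the RefSeq annotation of the bovine assembly ARS-UCD2.0, S100A8, S100A12 and S100A9 follow each other in this order with no gene between them, and RETN lies on another chromosome.

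S100A8 transcripts stood at a log2 level of 8.12 in the NC and 12.57 in the CNT gland of cow 4, and at 9.09 and 14.09 in those of cow 5, at 24 h. At 48 h the NC and CNT glands stood at 8.50 and 11.92 in cow 1, at 7.01 and 11.48 in cow 2 and at 8.62 and 13.44 in cow 3. Every CNT gland was far above every NC gland, and the differences within a cow ran from 3.42 (cow 1, 10.7-fold) to 5.00 (cow 5, 32.0-fold). The mean difference was 4.73 (standard error, SE, 0.50, 26.5-fold) at 24 h and 4.24 (SE 0.62, 18.9-fold) at 48 h. In the treated glands S100A8 was near the NC level. The CF and CFPD glands stood at 8.70 and 9.26 in cow 4, 8.89 and 9.32 in cow 5, 8.64 and 8.36 in cow 1, 7.07 and 7.85 in cow 2, and 9.16 and 8.73 in cow 3. CF minus CNT came to -4.53 (SE 0.50) at 24 h and -3.99 (SE 0.62) at 48 h. CFPD minus CNT came to -4.04 and -3.97 with the same errors.

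The first probe set of S100A9, the partner of S100A8 in calprotectin, gave the widest gap of the 5 probe sets between CNT and NC glands at both time points. At 24 h the NC and CNT glands stood at 6.29 and 11.06 in cow 4 and at 6.56 and 12.89 in cow 5. At 48 h they stood at 6.42 and 11.28 in cow 1, 4.59 and 10.19 in cow 2, and 6.04 and 11.87 in cow 3. No CNT gland came near an NC gland, and the smallest difference within a cow was 4.77 (cow 4, 27.2-fold) and the largest 6.33 (cow 5, 80.5-fold). The mean difference was 5.55 (SE 0.60, 46.8-fold) at 24 h and 5.43 (SE 0.71, 43.0-fold) at 48 h. CF glands stood at 6.09 in cow 4, 6.48 in cow 5, 6.44 in cow 1, 4.55 in cow 2 and 6.42 in cow 3, each within 0.38 of the NC gland of its cow. CFPD glands stood at 6.29 in cow 4, 7.42 in cow 5, 6.72 in cow 1, 8.45 in cow 2 and 6.27 in cow 3. The CFPD gland of cow 2 stood out as the highest of all glands outside the CNT group. CF minus CNT was -5.69 (SE 0.60) at 24 h and -5.31 (SE 0.71) at 48 h, and CFPD minus CNT was -5.12 and -3.97.

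The second probe set of S100A9 moved in the same direction in every cow but over a narrower range. Its NC and CNT glands stood at 8.03 and 10.68 in cow 4, 8.34 and 12.07 in cow 5, 8.26 and 10.55 in cow 1, 7.78 and 10.28 in cow 2, and 8.18 and 11.22 in cow 3. The CF and CFPD glands stood at 8.14 and 8.33 in cow 4, 8.27 and 8.53 in cow 5, 8.23 and 8.34 in cow 1, 8.33 and 8.91 in cow 2, and 8.28 and 8.42 in cow 3. CNT minus NC was 3.19 (SE 0.41, 9.11-fold) at 24 h and 2.61 (SE 0.24) at 48 h, so the size of the S100A9 difference depended on the probe set while its direction did not. This probe set exceeded the median of the array in all 20 glands, and the first one in 7.

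S100A12, the calgranulin encoded between S100A8 and S100A9, stood at 6.93 in the NC and 11.26 in the CNT gland of cow 4 and at 8.08 and 13.68 in those of cow 5. At 48 h these glands stood at 8.15 and 11.15 in cow 1, 5.92 and 11.50 in cow 2, and 7.64 and 12.56 in cow 3. The CNT glands were again above all NC glands, by 3.00 (cow 1, 7.99-fold) to 5.60 (cow 5, 48.5-fold) within a cow. The mean difference was 4.96 (SE 0.76, 31.2-fold) at 24 h and 4.50 (SE 0.64, 22.7-fold) at 48 h. The CF and CFPD glands stood at 7.52 and 7.73 in cow 4, 7.71 and 8.62 in cow 5, 8.36 and 8.21 in cow 1, 6.50 and 8.70 in cow 2, and 8.37 and 7.58 in cow 3. As for S100A9, the CFPD gland of cow 2 was the highest outside the CNT group, here followed closely by the CFPD gland of cow 5. CF minus CNT was -4.86 (SE 0.76) at 24 h and -4.00 (SE 0.64) at 48 h, and CFPD minus CNT was -4.30 and -3.58.

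For RETN the gap between CNT and NC glands was wider in the cows of 24 h than in those of 48 h. At 24 h its NC and CNT glands stood at 5.83 and 8.44 in cow 4 and at 5.83 and 9.30 in cow 5, a mean difference of 3.04 (SE 0.27, 8.21-fold). At 48 h they stood at 6.27 and 6.46 in cow 1, 5.91 and 6.59 in cow 2, and 5.88 and 7.71 in cow 3. The difference within a cow was thus 2.61 and 3.47 at 24 h but 0.20, 0.68 and 1.83 at 48 h, in different cows. At 48 h the mean difference was 0.91 (SE 0.30, 1.87-fold). The CF and CFPD glands stood at 6.02 and 5.97 in cow 4, 5.99 and 5.79 in cow 5, 5.80 and 5.88 in cow 1, 6.47 and 6.14 in cow 2, and 5.74 and 5.87 in cow 3. The CF gland of cow 2 lay at the level of the CNT gland of cow 1, so that RETN was the exception to the separation seen at 48 h. RETN exceeded the median of the array in 3 of 20 glands, all CNT. It passed the filter on low values at 24 h through its CNT glands alone and did not pass it at 48 h, where its values come from a fit without the filter.

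**Figure D1:**
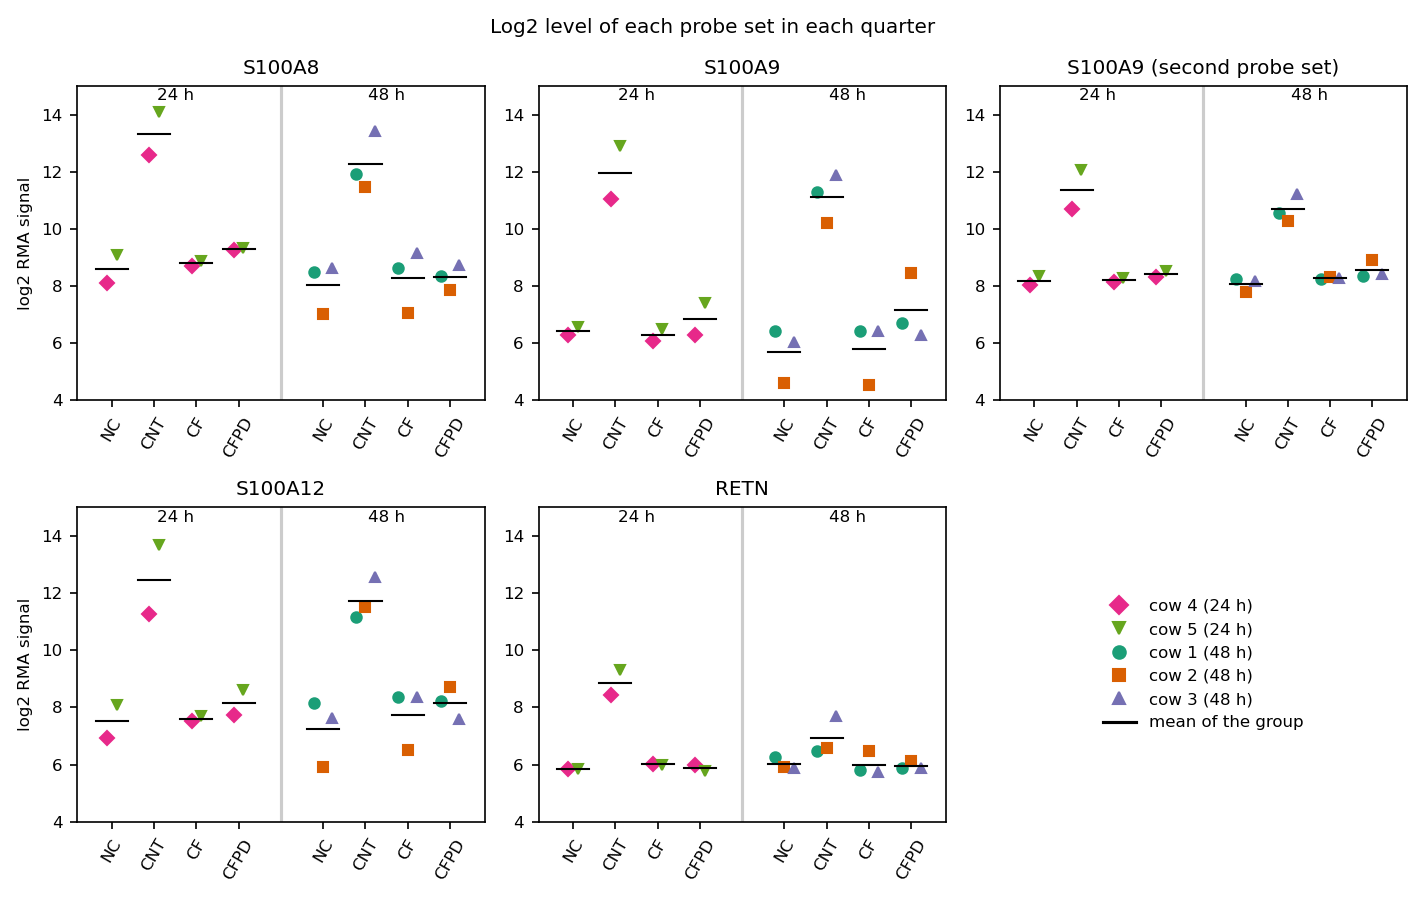
Log2 RMA signal of the 5 probe sets (y axis) in each gland, by group and time point (x axis). Each point is 1 gland, its shape and colour the cow, and the line the mean of 2 glands at 24 h or 3 glands at 48 h. CNT glands lie above all others in every panel except that of RETN at 48 h, where a CF gland at 6.47 lies beside CNT glands at 6.46 and 6.59.

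At 24 h the CNT glands of all 5 probe sets lay above every gland of the other 3 groups, as did those of 17.9% of the 13004 probe sets tested. At 48 h this held for the 4 probe sets that passed the filter, against 9.18% of the 13000 tested, and not for RETN. In each of the 5 cows the CNT gland was the highest of the 4 glands for all 5 probe sets, against 9.76% of 13486. Since these values chose the genes, nothing is read from the counts. Below the CNT group the order of the group means was not stable. NC glands overlapped those of the treated group nearest in mean for every probe set and time point. The other treated group did not always overlap them by the deposited labels. CFPD glands lay above NC glands for S100A8 at 24 h (9.26 to 9.32 against 8.12 to 9.09). They also did for the second S100A9 probe set at 48 h (8.34 to 8.91 against 7.78 to 8.26). For RETN at 24 h CF glands lay above NC glands (5.99 to 6.02 against 5.83). By the deposited labels CF and CFPD glands overlapped for S100A8, S100A12 and RETN at 48 h and for the first S100A9 probe set at both time points. With the labels of cows 1 and 4 exchanged they overlapped for all 5 probe sets at both time points. The share of all probe sets with such overlaps below the CNT group was not computed, so nothing is read from them.

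The CNT glands differed among cows in a common pattern. At 24 h cow 5 was above cow 4 for every probe set. At 48 h cow 3 was the highest for every probe set, and cow 2 the lowest for S100A8 and both S100A9 probe sets, while cow 1 was the lowest for S100A12 and RETN. The spread among CNT glands at 24 h was widest for S100A12 (12.47 ± 1.71, SD, n = 2) and narrowest for RETN (8.87 ± 0.61, SD, n = 2).

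How near treated glands came to the unchallenged gland was tested by comparing CF with NC, CFPD with NC and CFPD with CF glands. No CNT gland enters these differences, but the fit took its estimate of spread from all 4 groups. The CNT glands, which chose the genes, thus entered the errors and intervals. For S100A12 at 24 h the SD was 1.71 in CNT glands and 0.14 to 0.81 in the other groups. Over 4 genes and 5 cows, with the first probe set of S100A9, CF minus NC within a cow ran from -0.46 to 0.74 with a median of 0.16. CFPD minus NC ran from -0.39 to 3.86 with a median of 0.23. CNT minus NC ran from 0.20 to 6.33 with a median of 4.62 in the same cows and against the same NC glands. Outside the CFPD gland of cow 2, the largest value was 1.15, for S100A8 in the CFPD gland of cow 4, whose label is in doubt.

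The first S100A9 probe set and RETN lay below the median of the array in all NC and CF glands and passed the filter on low values only with the help of CNT glands, so their differences are given without intervals or a reading. By limma, the other 3 probe sets did not pass the threshold (adjusted p under 0.05 and a log2 difference of at least 1) in the 3 comparisons at either time point, nor did any probe set of the array (0%). None of the 3 reached an unadjusted p under 0.05 either, be the cow in the model or not. Without the cow in the model, few probe sets did. Of all 13004 tested at 24 h, 106 did for CF minus NC, 258 for CFPD minus NC and 67 for CFPD minus CF. Of 13000 at 48 h, 82, 43 and 21 did. These shares are small, so nothing is read from the lack of such values among the 3 probe sets. The intervals come from the model without the cow, so their width includes spread among cows. They were wide, and in this model a difference of about 1 log2 unit was mostly not detectable with this number of arrays. Intervals with the cow in the model were not computed. For S100A8, CF minus NC at 24 h was 0.19 with a 95% interval of -0.99 to 1.38, and at 48 h 0.25 (-1.12 to 1.62). For S100A12 it was 0.11 (-1.70 to 1.91) and 0.51 (-0.90 to 1.91). For the second S100A9 probe set it was 0.02 (-0.94 to 0.98) and 0.21 (-0.33 to 0.75). CFPD minus NC was 0.69 (-0.50 to 1.88) at 24 h and 0.27 (-1.10 to 1.64) at 48 h for S100A8. It was 0.24 (-0.72 to 1.21) and 0.48 (-0.06 to 1.02) for the second S100A9 probe set, and 0.67 (-1.14 to 2.47) at 24 h for S100A12. By the first S100A9 probe set CF minus NC was -0.14 at 24 h and 0.12 at 48 h, and for RETN at 24 h it was 0.18.

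In the CFPD gland of cow 2, sampled at 48 h, S100A9 and S100A12 transcripts stood well above the NC gland of the same cow. S100A9 stood 3.86 above it by the first and 1.13 above it by the second probe set, S100A12 stood 2.78 above it, S100A8 0.84 and RETN 0.24. Of the log2 difference between the CNT and NC glands of this cow, 69.0% was left for S100A9 by the first and 45.2% by the second probe set, 49.8% for S100A12 and 18.8% for S100A8. In the CF gland of this cow -0.7%, 22.3%, 10.4% and 1.4% were left. The NC and CF glands of cow 2 were also the lowest of all NC and CF glands for S100A8, S100A12 and the first S100A9 probe set, so for S100A9 by that probe set and for S100A12 both a high CFPD and a low NC gland entered the differences. For S100A8 the CFPD gland of cow 2, at 7.85, was itself the lowest of the CFPD glands. In the other 4 cows, CFPD minus NC by the first S100A9 probe set ran from 0.00 in cow 4 to 0.86 in cow 5.

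Cow 2 weighed most on the 48 h CFPD means of S100A9, by the first probe set, and of S100A12. CFPD minus NC by the first S100A9 probe set was 1.46, fell to 0.81 without the CFPD gland of cow 2 and to 0.26 without all glands of cow 2. For S100A12 it was 0.93 (-0.48 to 2.33, adjusted p = 1 from limma), 0.66 without that gland and 0.00 without cow 2. CFPD minus CF by the first S100A9 probe set was 1.34, 0.69 without that gland and 0.06 without cow 2. The differences of these probe sets thus rested largely on 1 cow. A median over 14 surface and oxidase genes of neutrophils was 0.42 above NC in the CFPD gland of cow 2 (10 of 14 genes higher) and 0.06 above it in the CF gland (8 of 14), and the part of these cells in the result was not tested.

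**Figure D2:**
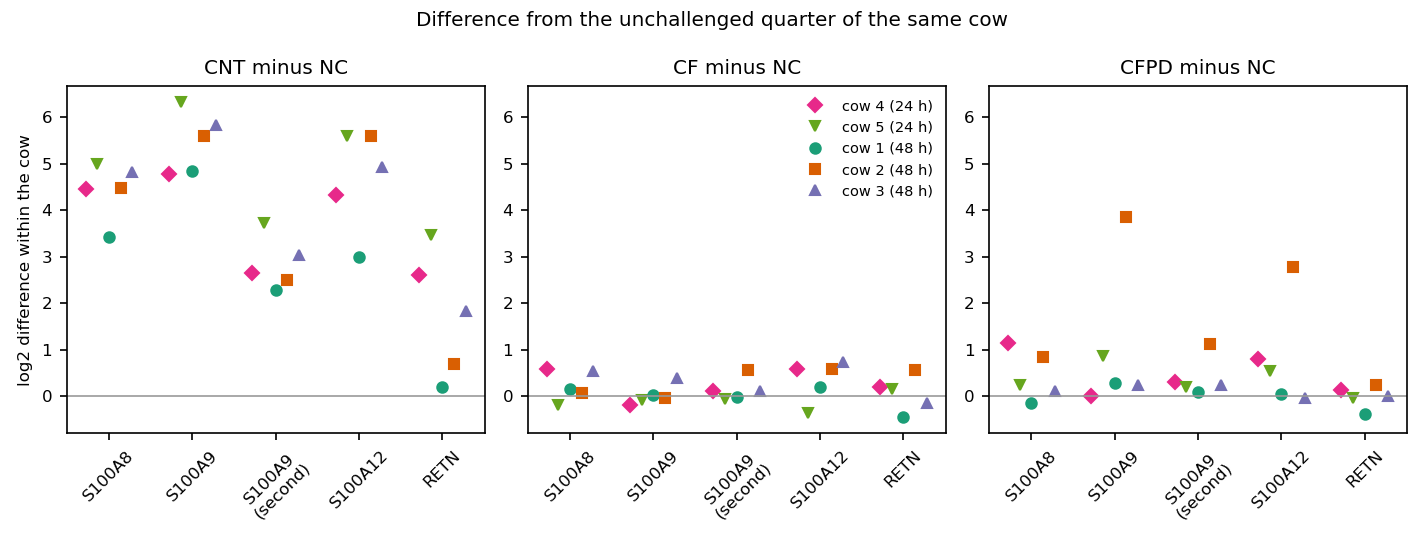
Log2 difference between a challenged gland and the NC gland of the same cow (y axis) for the 5 probe sets (x axis), in CNT, CF and CFPD glands (panels). Each point is 1 cow, and the line marks no difference. Most points of treated glands lie near the line. The furthest are those of the CFPD gland of cow 2, at 3.86 for S100A9 by the first probe set and 2.78 for S100A12. Next are S100A8 in the CFPD gland of cow 4, at 1.15, and the second S100A9 probe set in that of cow 2, at 1.13.

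The comparison of CFPD with CF glands, which differ by prednisolone and by side, depended on the labels of cows 1 and 4. By the deposited labels the CFPD gland was the left rear one in cows 1 and 4 and the right rear one in the other cows. With the labels exchanged it was the right rear gland in every cow, so prednisolone and side cannot then be told apart. By the second S100A9 probe set the CFPD gland was above the CF gland in 5 of 5 cows, by 0.11 to 0.57, which 3.51% of all probe sets tested also did. With the labels of cows 1 and 4 exchanged this held in 3 of 5 cows, and 4.33% of probe sets then did so in all 5. By the first S100A9 probe set CFPD exceeded CF in 4 of 5 cows by the deposited labels and in 2 of 5 with labels exchanged. For S100A8 and S100A12 the count was 3 of 5 either way, and for RETN 2 of 5 either way. The mean of S100A8 at 24 h was 9.29 ± 0.04 (SD, n = 2) in CFPD and 8.80 ± 0.14 in CF glands, and with labels exchanged 9.01 ± 0.44 and 9.08 ± 0.26, so that the order turned. No direction between CF and CFPD is therefore drawn for these genes. By the second S100A9 probe set the CFPD gland was also above the NC gland in 5 of 5 cows, as for 3.16% of probe sets, by 0.08 (cow 1) to 1.13 (cow 2).

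Differences between the time points compare different cows. The CNT minus NC values had entered the choice of the genes, so their change between the time points is given as a description. For RETN, CNT minus NC was lower at 48 h than at 24 h by a log2 difference of -2.13 (SE 0.46), which ranged from -2.60 to -1.70 when 1 cow was left out. For S100A8 the same difference was -0.49 (SE 0.94), for S100A12 -0.46 (SE 1.09), and for S100A9 -0.12 (SE 1.09) by the first and -0.58 (SE 0.47) by the second probe set. These errors leave room for changes of about 1 log2 unit or more in either direction for S100A8, S100A12 and the first S100A9 probe set.

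Among all 20 glands the calgranulins followed each other closely, which is given as a description because the glands come from 5 cows and the CNT glands lie apart from the rest. Pearson's r between the log2 levels was 0.964 for S100A8 and S100A12, 0.979 for S100A9 and S100A12, and 0.947 for S100A8 and S100A9 (n = 20 arrays, first S100A9 probe set). After the mean of each group and time point was removed, r was 0.813, 0.877 and 0.656. The 3 genes thus varied together within the groups as well, where differences among the 5 cows remained. Values of this size were not confined to them. For the 5 other genes most similar over the 20 arrays, r after this removal was 0.62 to 0.869 with S100A8. It was 0.537 to 0.916 with the first S100A9 probe set and 0.652 to 0.854 with S100A12. RETN had an r of 0.806 to 0.828 with the calgranulins by their first probe sets and of 0.282 to 0.351 after the group means were removed. With the second S100A9 probe set it had 0.890 and 0.765.

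The genes whose patterns over the 20 arrays were most like those of the calgranulins were partly the same for each of them. IL1RN, the antagonist of the interleukin 1 receptor, was among the nearest 5 of S100A8 (r = 0.944), S100A9 (0.968, first probe set) and S100A12 (0.970). NFE2, a transcription factor of blood cell precursors, was among those of S100A12 (0.963) and of both S100A9 probe sets (0.951 and 0.981). LDHA, a subunit of lactate dehydrogenase, headed the list of the first S100A9 probe set (0.976) and was on that of S100A12 (0.957), and THEM4, a thioesterase, was on the lists of both S100A9 probe sets and of S100A12. The remaining neighbours were FGL2, LYPLA1, NDUFV2 and MS4A8 for S100A8, SLC11A1 for the first S100A9 probe set, CCL3, SLC7A7 and CXCR1 for the second, and TSPO for S100A12. CXCR1 is a chemokine receptor of neutrophils and SLC11A1 a metal transporter of phagosomes.

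RETN had none of these among its nearest 5. They were DEFB10, a beta-defensin (r = 0.959), IL1R2, the decoy receptor of interleukin 1 (0.955), TGM3, a transglutaminase (0.939), RUBCNL (0.936) and LOC407171 (0.927). CNT minus NC at 24 h was 4.65 for DEFB10, 3.79 for IL1R2, 3.93 for TGM3, 5.32 for RUBCNL and 4.05 for LOC407171. Like RETN, the first 4 did not pass the filter on low values at 48 h, while LOC407171 did, with a difference of 2.48.

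Genes related to the calgranulins were taken from lists written with earlier results of these arrays known. Of the other S100 genes, 9 were tested, and by limma the CNT group was the higher one for 1 of them at 24 h and for 3 at 48 h, where 1.62% and 2.15% of all probe sets tested were called higher. S100A2, an S100 protein of epithelial cells, rose by 1.90 (SE 0.22, adjusted p = 0.0154) at 24 h and 2.96 (SE 0.64, adjusted p = 0.0294) at 48 h. At 48 h S100A4, found in fibroblasts and leukocytes, rose by 1.96 (SE 0.39, adjusted p = 0.0211) and S100A13, which binds copper as well as calcium, by 1.13 (SE 0.27, adjusted p = 0.042). The median over the list was 0.43 at 24 h and 1.13 at 48 h, beside -0.006 and 0.126 over all probe sets. With the cow as a block 3 and 4 of the 9 were higher. Each of these calls was kept in only 1 of the fits that left out 1 NC or CNT gland or 1 cow (6 fits at 24 h, 9 at 48 h).

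Among the receptors of these proteins and their partners, 8 genes were tested at each time point. TLR4, which binds S100A8 and S100A9, differed by 0.55 (SE 0.32, adjusted p = 0.377 from limma) at 24 h and 0.66 (SE 0.27, adjusted p = 0.156) at 48 h. CD14, the coreceptor of TLR4, differed by 1.63 (SE 0.42, adjusted p = 0.0879) at 24 h and by 0.10 at 48 h. CAP1, a receptor of resistin in human monocytes, differed by -0.01 and 0.31. None of the 3 passed, though CD14 did at 24 h with the cow as a block (adjusted p = 0.00793 from limma). CD36, a fatty acid transporter that also binds the calprotectin complex, was the only gene of the list called at 24 h and fell by 1.22 (SE 0.14, adjusted p = 0.0154), beside 0.769% of all probe sets called lower. ITGB2, the beta chain of the leukocyte integrins, was the only one called at 48 h and rose by 1.48 (SE 0.25, adjusted p = 0.0111). With the cow as a block CD14 and ITGB2 were called higher and CD36 and DCN, a proteoglycan of the matrix, lower at 24 h. The call of CD36 was kept in 1 of 6 fits with a gland or cow left out. That of ITGB2 was kept in 5 of 9, and ended when the NC gland of cow 2, or any 1 of the 3 cows, was left out. Of 8 transcription factors tested, STAT3 alone was called, at 48 h (1.25, SE 0.26, adjusted p = 0.0241), a call kept in 1 of 9 such fits, and 3 were higher with the block.

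In tissue samples of this kind, more cells of a type and more RNA per cell cannot be told apart. Markers of neutrophils rose with the calgranulins. Of the surface and oxidase genes, 5 of 12 tested passed as higher in the CNT group at 24 h (10 of 12 with the cow as a block) and 9 of 11 at 48 h, with medians of 2.82 and 1.82. At 24 h, 7 of the 14 genes on the array lay below its median in all NC glands, and 2 in all CNT glands. At 48 h, 6 and 2 did. CXCR1 exceeded that median in 5 of 20 glands. Genes could thus pass the filter through CNT glands alone, so these calls and medians are a description. CXCR1 rose by 5.85 (SE 0.79, adjusted p = 0.0238 from limma) and 3.77 (SE 0.45, adjusted p = 0.0023). NCF1, a subunit of the oxidase, rose by 4.39 (SE 0.65, adjusted p = 0.0278) and 2.38 (SE 0.33, adjusted p = 0.00481). IL1RN, which is on the list but encodes neither a surface nor an oxidase protein, rose by 4.03 (SE 0.28, adjusted p = 0.00424) and 3.15 (SE 0.46, adjusted p = 0.00567). At 24 h, leaving out the NC gland of cow 4 ended all 3 calls, leaving out that of cow 5 ended those of CXCR1 and NCF1, and leaving out cow 5 ended those of NCF1 and IL1RN. At 48 h all 3 calls ended when cow 2 or cow 3 was left out. The mean level of the 14 genes ran from 7.19 to 7.23 in NC and from 8.76 to 10.17 in CNT glands at 24 h, and from 7.09 to 7.68 and from 8.89 to 9.20 at 48 h. In CF and CFPD glands it ran from 7.12 to 7.67 over both time points. ITGAM, a defining marker, was below the median of the array in all 20 glands, and 13 of 17 granule genes were so in all CNT glands of 24 h and 14 in all of 48 h. Of the granule genes tested by limma, 0 of 3 and 0 of 2 were called, though 2 and 2 had an unadjusted p under 0.05 and 1 passed at each time point with the block. The part of neutrophil number in the calgranulin differences was not tested.

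The differences of the 4 genes are set beside this list cow by cow. The genes were chosen by their high CNT levels, which fixed in part where they lie against the list, so nothing is read from these values. The median CNT minus NC of the list was 1.43 in cow 4, 3.30 in cow 5, 1.56 in cow 1, 1.63 in cow 2 and 1.88 in cow 3. The difference of S100A9 by the first probe set exceeded it by 3.03 (cow 5) to 3.96 (cow 2), that by the second probe set by 0.43 (cow 5) to 1.22 (cow 4), that of S100A8 by 1.70 (cow 5) to 3.03 (cow 4) and that of S100A12 by 1.44 (cow 1) to 3.95 (cow 2). RETN exceeded the list median by 1.18 in cow 4 and 0.17 in cow 5 at 24 h, and differed from it by -1.36 in cow 1, -0.95 in cow 2 and -0.05 in cow 3 at 48 h.

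**Figure D3:**
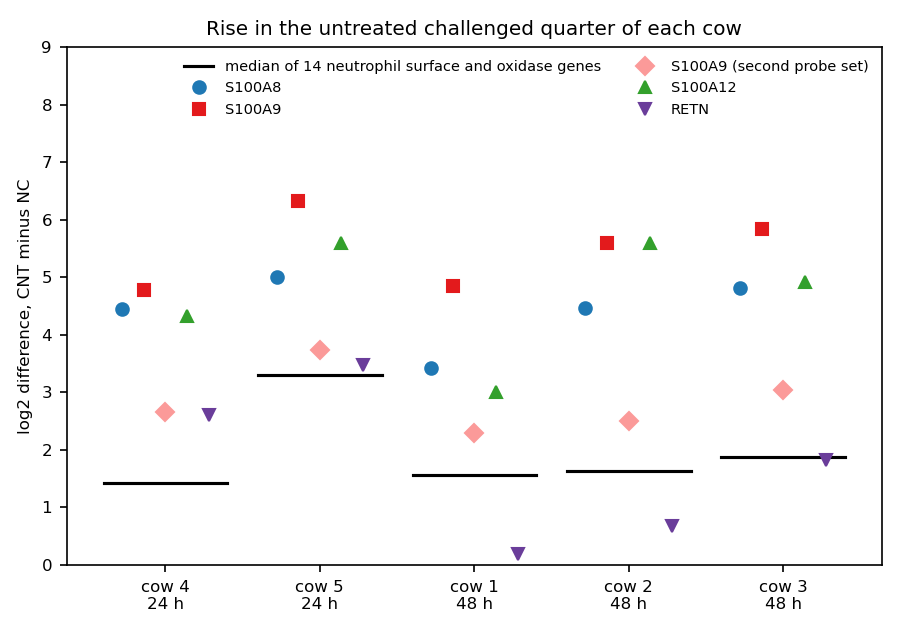
Log2 difference between the CNT and the NC gland (y axis) of each cow (x axis) for the 5 probe sets (points), beside the median of 14 neutrophil surface and oxidase genes (line). The first S100A9 probe set lies 3.03 to 3.96 from the line and RETN between -1.36 and 1.18. The genes were chosen by their CNT levels, and the plot is a description.

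Markers of other cells were counted in the same way. Of the monocyte and macrophage markers, 0 of 8 were called by limma at 24 h (4 at an unadjusted p under 0.05, 3 with the cow as a block) and 3 of 9 at 48 h (5 higher and 1 lower with the block). These were CD68 (2.86, SE 0.48, adjusted p = 0.0107 from limma), VSIG4 (1.77, SE 0.37, adjusted p = 0.0253) and CSF1R (1.19, SE 0.25, adjusted p = 0.025), of which CD68 lost its call without cow 1 or cow 3, and the other two in 7 and 6 of 9 such fits. The mean level of the list ran from 8.15 to 8.45 in NC and 8.77 to 9.48 in CNT glands at 24 h, and from 8.42 to 9.13 and 9.59 to 10.08 at 48 h. By limma with or without the block, 0 of 8 and 0 of 10 markers of T and NK cells and 0 of 1 and 0 of 2 of B and plasma cells were called, and 1 T and NK cell marker had an unadjusted p under 0.05, at 48 h. Of the adipocyte markers, 5 were tested at 24 h (median -0.32), and CIDEA fell by 1.23 at 24 h (SE 0.24, adjusted p = 0.0463), a call lost in all 6 fits with a gland or cow left out. At 48 h 0 of 6 were called (median -0.46, 2 had an unadjusted p under 0.05). The block gave 2 lower at each time point. ADIPOQ and LEP, defining products of fat cells, were below the median of the array in all 20 glands. Of the keratinocyte markers 5 were tested at 24 h (median -0.23), where TGM3 rose by 3.93 at 24 h (SE 0.75, adjusted p = 0.0463), a call kept in 3 of these 6 fits, and a fit with the block called 1 higher and 1 lower. The 24 h means of TGM3 were 4.85 in NC, 5.02 in CF and 5.14 in CFPD glands. Those of VSIG4 at 48 h were 6.42, 6.53 and 6.60. They lay below the medians of the arrays, so the calls of TGM3 and VSIG4 are a description. At 48 h 0 of 4 were called, and 0 had an unadjusted p under 0.05. Of the 12 markers of milk-secreting cells tested (median -0.06 at 24 h), BTN1A1 fell by 1.28 at 24 h (SE 0.21, adjusted p = 0.0318), kept in 2 of 6. At 48 h 0 of 12 were called (median -0.23, 4 had an unadjusted p under 0.05). BTN1A1 then differed by -0.51 (SE 0.15, adjusted p = 0.0832 from limma). The part of all these cells in the RETN and calgranulin differences was not tested. In none of the 11 lists did limma call a gene between treated and NC glands or between CFPD and CF glands, and of 160 list entries tested over both time points, 2 had an unadjusted p under 0.05 for CF minus NC, 2 for CFPD minus NC and 0 for CFPD minus CF.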

How the data were processed

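The deposited values are log2 signals, which the authors computed per probe set with RMA in the package affy (background correction, quantile normalization, summarization). Versions are not given in the sources used here. Values were not normalized again except as an alternative. Tests used probe sets other than the 112 controls with a value over the array's median on 2 or more arrays (24 h) or 3 or more (48 h), 13004 and 13000 in number, and 13486 for time differences.

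One limma model per time point (limma 3.58.1, R 4.3.3) held the 4 groups and no term for the cow, with Benjamini-Hochberg adjustment over all probe sets tested. Calls needed an adjusted p under 0.05 with a log2 difference of 1 or more in size. Time differences came from 1 fit of all 20 arrays. Glands of a cow come from the same animal, and their deviations from group means correlated (mean r 0.521 for 24 h, 0.448 for 48 h), so the cow as a replicate block was an alternative. Others were scaling, filter, prior, probe set, left-out glands and cows, and exchanged labels (combined with the block after the data were seen). The number of arrays limits the precision. Scripts were tested on simulated data.

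The members and gene lists were chosen with earlier results of these data known. Genes named are the members, the 5 most similar patterns per member by Pearson's r, and up to 3 called genes per list and time point with the largest difference. TLR4, CD14 and CAP1 were named for their role, DCN for its call with the block, and ITGAM, ADIPOQ, LEP and the milk protein genes as cell markers, after their values were seen. List genes with several probe sets are given by that with the highest mean. Sequences are not used here. Symbols are those of the array's annotation, and gene order is RefSeq's.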

Additional observations from a re-analysis of the deposited data

How the results depend on the processing

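The median CNT minus NC difference of the 4 genes at 24 h was 4.85, and 3.96 with the second in place of the first S100A9 probe set. With single glands or cows left out it ran from 3.86, without the CNT gland of cow 5, to 5.83, without that of cow 4. The medians of the other comparisons with CNT glands moved by less than the spread between cows under each alternative run, and no difference that was called reversed. With the cow as a replicate block the median at 24 h was again 4.85, and no call of these genes changed in the tested comparisons without CNT glands. In the tested comparisons without CNT glands, 29 of 546 values had another sign than the main one, and none was called. Of 264 list counts compared, 36 moved by more than 1.5 times, 32 of them with the block and 4 with labels exchanged. Groups of 2 or 3 glands limit every value, and RETN and the first S100A9 probe set exceeded the median of the array in 3 and 7 of 20 glands.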
